A study of Mus musculus with 3 samples.

Results

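The cells described here are those of metastasis-bearing brains, enriched for immune cells, that the authors had assigned to gated subsets in the deposited metadata. The deposited cell metadata hold 5 gate columns with 15 values between them, and these values define 13 subsets that exclude each other. The members were the cells with any such value, counted per brain and per RNA cluster, after barcodes that also stood in the table of naive brains had been dropped. They numbered 5345 of 8443 kept cells, in a series of 13455 deposited cells.

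Cx3cr1 is the receptor for fractalkine, a chemokine displayed on neurons, and microglia, the resident macrophages of the brain, are the brain cells that carry most of it. By surface protein, microglia are classically CD11b-positive with low CD45, whereas leukocytes that entered from blood have high CD45. Among the latter, CD3 marks T cells, which are divided by CD4 and CD8, Ly6C separates inflammatory from other monocytes and their progeny, and Ly6G together with Ly6C marks neutrophils.

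The study compared female C57Bl/6 mice aged 2 to 3 months that were Cx3cr1+/- or Cx3cr1-/-, so all animals carried at least 1 disrupted copy of the gene, and no wild-type group was analysed here. How the allele was made is not given in the sources used here. Metastases had been seeded by injecting E0771 cells, a mouse mammary carcinoma line, into the carotid artery about 2 weeks before collection. Perfused brains (1 hemisphere per label) were digested, enriched for immune cells on a Percoll gradient of 70, 37 and 30%, stained with 35 barcoded antibodies and a hashtag antibody per brain, pooled and captured as 1 preparation. The metadata name 2 brains Het and 2 brains Hom among the metastasis-bearing ones. They are called Het brain 1 and 2 and Hom brain 1 and 2 below, in the order of their hashtag numbers, and the values of the 4 brains are always given in that order.

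Each brain was recognised by the 15-base barcode of its hashtag. These 4 sequences are shown because they alone tie a gated cell to a genotype, and capitals mark the whole barcode.
Het brain 1 (M-HTO-3): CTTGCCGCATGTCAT
Het brain 2 (M-HTO-4): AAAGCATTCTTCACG
Hom brain 1 (M-HTO-7): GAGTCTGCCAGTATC
Hom brain 2 (M-HTO-8): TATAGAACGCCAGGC

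The names of the gates refer to 6 proteins with an antibody tag in the panel. The tag barcodes below are the sequences whose UMIs (counts of distinct barcoded molecules) measure those proteins, and CD3, which no gate names, is added as the protein that marks T cells.
CD45: TGGCTATGGAGCAGA
CD11b: TGAAGGCTCATTTGT
CD3: GTATGTCCGCTCGAT
CD4: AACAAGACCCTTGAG
CD8a: TACCCGTAATAGCGT
Ly6C: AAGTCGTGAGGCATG
Ly6G: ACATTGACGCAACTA
Which tags and which cut-offs drew each gate is not given in the sources used here. The column names also contain the abbreviations BMDM and BAM, which the files do not spell out, so they are used as written. One column splits the CD45-low CD11b-positive cells into groups numbered 0 to 3 with no names.

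Kept cells numbered 1354, 2610, 2925 and 1554, of which 80.5, 81.1, 43.0 and 56.6% had a gate. Median raw RNA UMIs per cell were 8199.5, 7823.5, 71585 and 19767.5. The cells with no gate lay mostly in 1 RNA cluster, marked by the epithelial keratin Krt8 and by Wfdc2. It held 2732 cells with a median of 103002 RNA UMIs, 1.54% of them had RNA of Ptprc, the gene for CD45, and none was gated. It made up 17.1, 8.31, 55.7 and 42.1% of the kept cells. The barcodes shared with the naive table, 1138 of 9581 in the metastasis table, were dropped throughout. For 403 of them, or 35.4%, the genotype differed between the tables, and how far such labels reach into the kept cells was not tested. The share was 40.6% in the CD45-low CD11b-positive gate, 55.9% in the CD45-low CD11b-negative gate, 55.6% in group 1 and 51.5% in group 2, against 20.97% in CD4+ cells.

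The genotype labels matched the RNA of Cx3cr1 in group 0, and values of the other gates are not given here. In group 0, the most microglia-like gate, Cx3cr1 stood at 1363, 1556, 78.4 and 37.0 corrected UMIs per 1000000 (CPM), and 100, 100, 47.1 and 30.4% of cells had a corrected count above 0. Both Het brains were above both Hom brains.

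The gate names held against RNA in part. Group 0 had 560 cells, of which 99.6% were in the microglia-like cluster. All 8 microglia markers were more than 2-fold above the other gated cells, with P2ry12 detected in 99.3% of cells and Tmem119, another gene restricted to microglia in the brain, in 99.1%. Group 1, with 241 cells, was a mixture: 52.7% lay in the monocyte and macrophage-like cluster, 19.9% in an unnamed cluster of few UMIs led by mitochondrial genes (cluster 5), 13.7% in the microglia-like and 5.81% in the neutrophil-like cluster. Its leading genes were Ccl8, Apoe, Pf4, S100a9 and S100a8. Above the 2-fold mark were 2 of 7 markers of border-associated macrophages, the macrophages of meninges and perivascular spaces, with a summed level of 728 CPM, and 2 of 5 neutrophil markers, with 6042 CPM. By brain the neutrophil sum was 8688, 4860, 48.2 and 10093 CPM, far lower in Hom brain 1, and the neutrophil-like cells of the group numbered 2, 5, 1 and 6.

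Group 2 did not look like macrophages by RNA, and group 3 had too little RNA to be named by it. Group 2 had 90 cells, 52.2% in cluster 5 and 47.8% in the vascular-like cluster. Its leading genes included Rgs5, a pericyte gene, and Flt1 and Cldn5, endothelial genes. Cldn5 stood at 1359 CPM there against 1.37 CPM in group 0, Itgam (the gene for CD11b) was above 0 in 15.6% of its cells, and Mrc1, a marker of border-associated macrophages, in 2.22%. Group 3 had 92 cells, all but 1 of them in cluster 5, with a median of 1336 raw RNA UMIs and 701.5 detected genes against 8326.5 UMIs and 2619.5 genes in group 0. After depth correction the same cells of group 3 had a median of 2406.5 genes above 0. Corrected counts can therefore be above 0 where the raw count was not, and Ptprc and Krt8 were both above 0 in 100% of group 3. Its RNA values are left out below.

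The CD45-low CD11b-negative gate, 816 cells, held 47.2% vascular-like, 29.2% cluster 5, 12.7% T-like and 5.88% NK-like cells. All 4 endothelial markers and 4 of 5 mural and stromal markers were more than 2-fold above the other gated cells, and 50.6% of its cells had Ptprc above 0. So a CD45-low share in these data is in part a share of vessel cells, not of leukocytes. The vascular-like cluster was almost wholly inside CD45-low gates, at 97.0, 86.4, 96.9 and 96.5% of its cells.

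The T gate was closely tied to 1 RNA. All 1041 cells with a value in the T cell column had a corrected count of Cd3e, a chain of the CD3 complex, above 0. None of the 2505 cells in the BMDM and CD11b- gates did, which allows a share of up to 0.120%. Cd3e was also above 0 in 46.2% of the 366 cells with no gate outside the Krt8-high cluster, so it did not define the gate alone. Since no T-gated cell lacked it, it is not taken as an independent check of this gate, and the antibody tag levels were not analysed here. The T-like cluster contributed 922 cells to the gate, 83.3, 72.4, 88.5 and 74.8% of its cells in each brain. A further 78 T-like cells, all with Cd3e at 0, were in the CD11b- gate, and 104 were in the CD45-low CD11b-negative gate, of which 85.6% had Cd3e above 0.

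Within the T gate the CD4 and CD8 calls matched the RNA of their genes. Cd4 was above 0 in 56.9% of the 297 CD4+ cells and in 0 of the 242 CD8+ cells, which allows up to 1.24%. Cd8a or Cd8b1, the 2 chains of CD8, was above 0 in 91.3% of CD8+ and 4.04% of CD4+ cells. Whether these calls used RNA is not given either, so the match is not taken as an independent check of them. The 502 T cells with neither call, to which the column gives its own name as the value, had Trdc above 0 in 71.9% of cells. Trdc encodes the constant part of the delta chain of gamma-delta T cells, and it was above 0 in 5.39% of CD4+ and 1.24% of CD8+ cells. All 3 gamma-delta markers were over 2-fold above the other gated cells, and Il17a, the gene of a cytokine that many gamma-delta cells make, ranked second among the leading genes (noticed after its values were seen).

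The BMDM gate, 2204 cells, was not made of macrophages alone. Its Ly6CHigh subset (760 cells) lay to 92.4% in the monocyte and macrophage-like cluster, with Ccr2, the receptor that brings monocytes out of bone marrow, in 91.2% of cells and Ly6c2 at 1678 CPM. The Ly6CLow subset (1311 cells) was split between that cluster, at 45.3%, and the NK-like cluster, at 42.5%, and its leading genes were Gzma, Gzmb and Prf1 of cytotoxic granules beside MHC class II genes. Ncr1, a receptor of NK cells, was above 0 in 37.8% of Ly6CLow and 1.97% of Ly6CHigh cells. Of the whole NK-like cluster, 74.6% of cells carried the Ly6CLow label. The Ly6C+Ly6G+ subset (124 cells) lay to 59.7% in the neutrophil-like and 37.1% in the monocyte and macrophage-like cluster, and S100a8, an abundant neutrophil gene, was above 0 in 91.9% of its cells. The remaining 9 BMDM cells had no Ly6 call.

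The CD11b- gate, 301 cells, was spread over NK-like (29.2%), T-like (25.9%), monocyte and macrophage-like (22.3%), cluster 5 (14.6%) and B-like cells (6.98%). All 4 markers of plasmacytoid dendritic cells, the interferon-producing cells of blood, were over 2-fold above the other gated cells. Siglech stood at 392 CPM against 37.6 CPM in the BMDM gate, and Ly6d at 682 against 24.7 CPM.

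**Figure D1:**
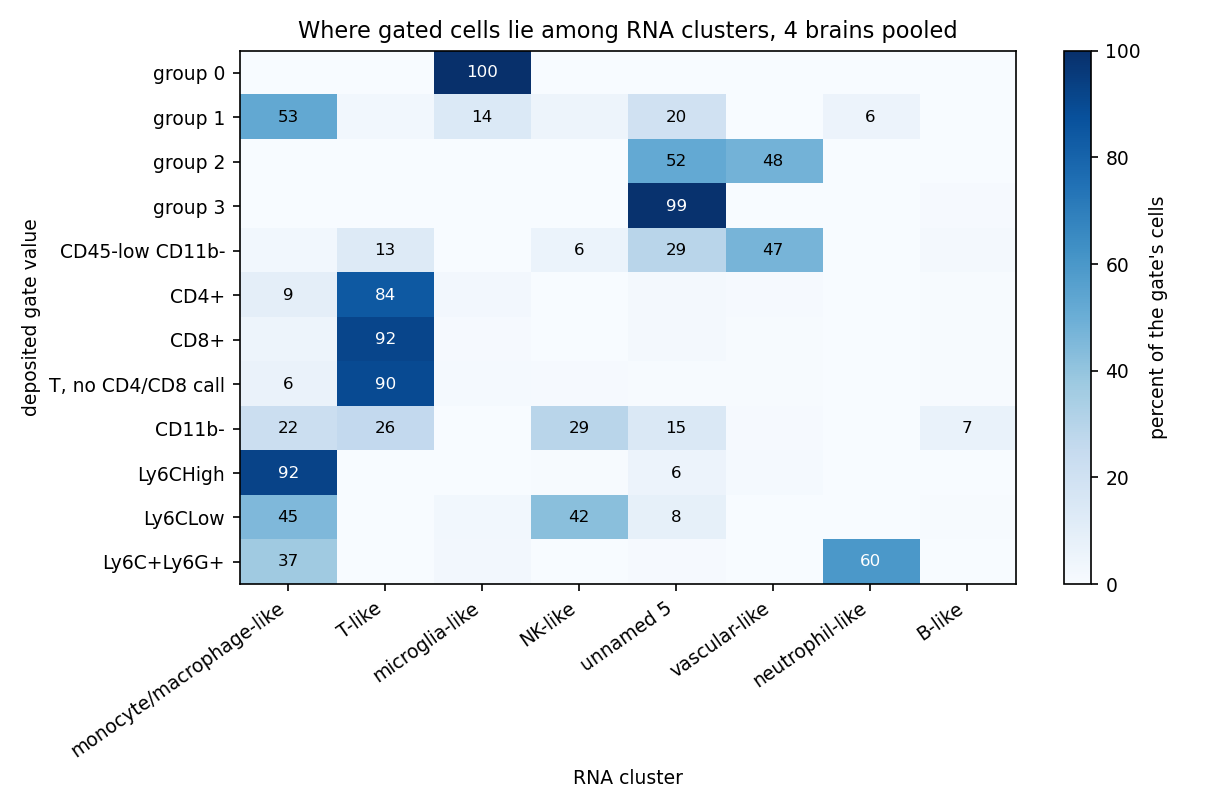
Percent of each gate's cells (rows) that lay in each RNA cluster (columns), over the 4 brains pooled, with values of 5 or more printed. Group 0, CD4+, CD8+ and Ly6CHigh each fell mostly into 1 named cluster, whereas Ly6CLow was divided between the monocyte and macrophage-like (45.3%) and NK-like (42.5%) clusters and group 2 between cluster 5 (52.2%) and vascular-like cells (47.8%).

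**Figure D2:**
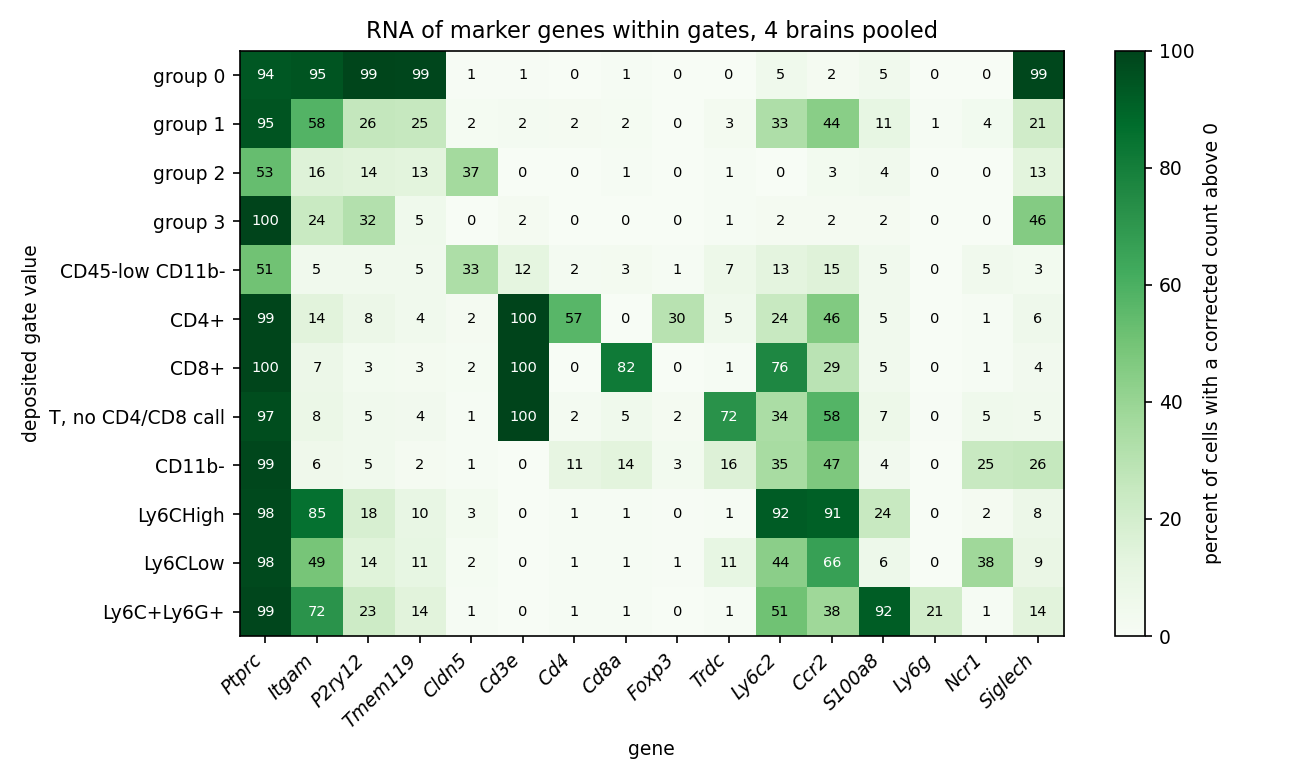
Percent of cells in each gate (rows) with a corrected RNA count above 0 for 16 marker genes (columns), over the 4 brains pooled. Cd3e was above 0 in every T-gated cell, Cd4 and Foxp3 in none of the CD8+ cells, and Cldn5 in 36.7% of group 2.

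The main comparison asked whether loss of the second Cx3cr1 copy went with a different make-up of the immune cells. With 2 brains against 2, an exact two-sided permutation test cannot give a p below 0.333, so no share could pass 0.05, and every Benjamini-Hochberg adjusted p over the 15 gate values was 1. Shares are therefore given per brain, and brains are said to overlap or not. The 95% Wilson intervals reached at most 2.55 percentage points to either side for shares of all cells, 3.29 for shares of gated cells and 9.55 for shares of a parent gate. For some gates they were wider than the spread between brains. These intervals cover counting error only. Nothing in the labels gives a second preparation, so differences between brains also hold the differences between staining and recovery of each brain.

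As shares of all kept cells, all 15 gate values had a lower mean in Hom, beside the larger Krt8-high cluster there. Shares of a whole depend on each other, and when cells of over 30000 raw UMIs were left out (2681 of these 2967 cells were in the Krt8-high cluster), 10 of the 15 means became higher in Hom. For this reason each gate is also given as a share of gated cells and of its parent gate. Of the 15 gate values, 4 (26.7%) had brains that did not overlap as shares of all cells, all lower in Hom. As shares of gated cells there were 2 (13.3%), both higher in Hom, and as shares of cells in clusters of CD45-type (at least 50% of cells with Ptprc) there were 3 (20.0%). Of the 11 values with a parent gate 3 (27.3%) did not overlap as shares of it. If genotype labels were random, the brains of a value would fail to overlap with a probability of 0.333. Each of these percentages lies below that, so absence of overlap alone does not set a gate apart.

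**Figure D3:**
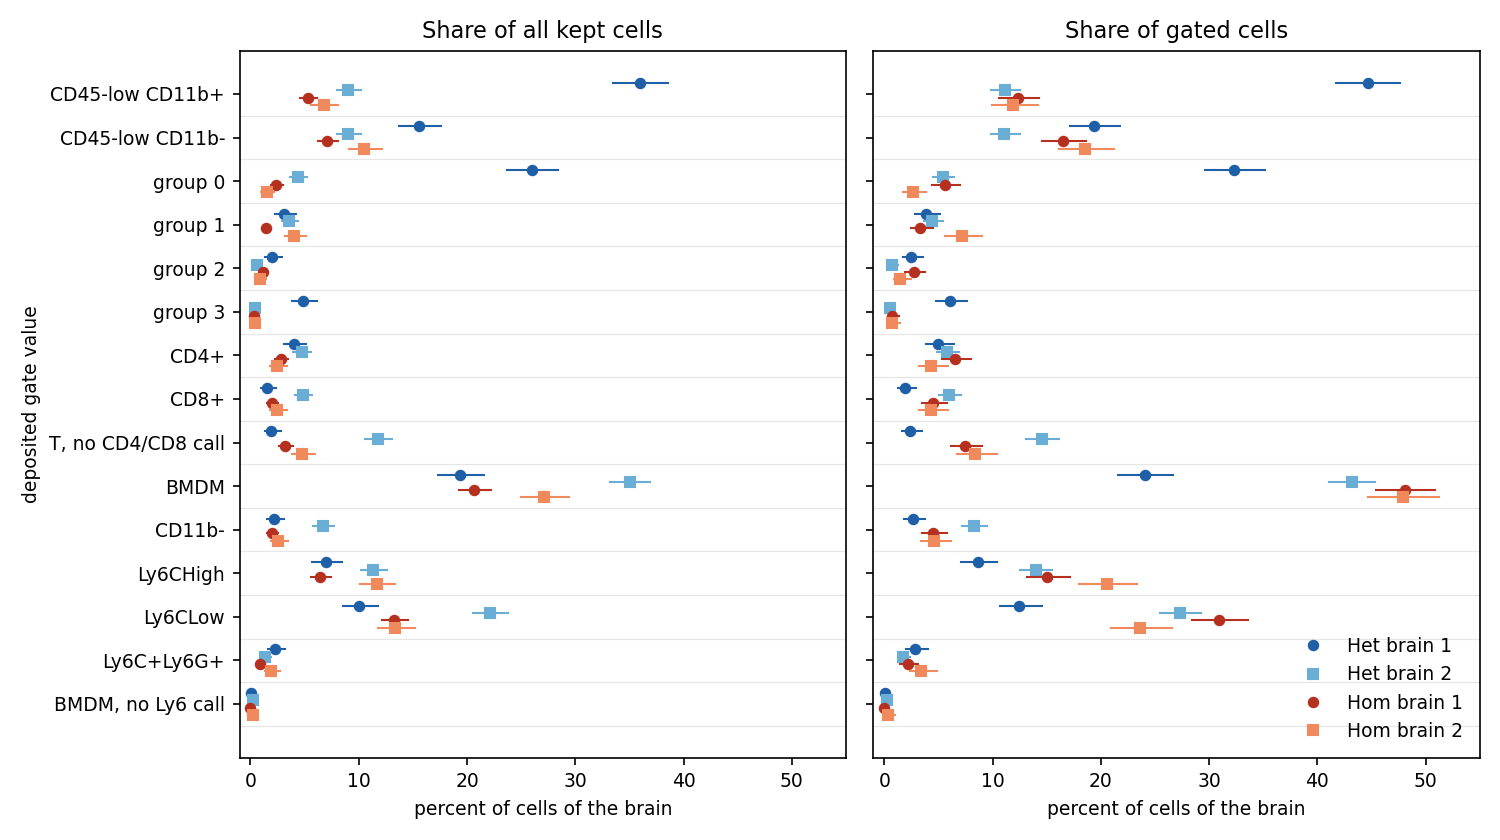
Share of each deposited gate value in the 4 brains, as percent of all kept cells (left) and of gated cells (right), with 95% Wilson intervals as bars. Het brain 1 lies apart from the other brains in the CD45-low CD11b+ and group 0 gates on both scales, whereas on the right the BMDM gate is above 43.2% in both Hom brains and at or below it in both Het brains.

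CD45-low CD11b-positive cells, the gate that holds microglia, made up 36.0, 9.04, 5.30 and 6.76% of all kept cells, from 487, 236, 155 and 105 cells. The Wilson intervals were 33.5 to 38.6, 8.0 to 10.2, 4.54 to 6.17 and 5.61 to 8.11%. The mean was 22.5% ± 19.04 (SD, n = 2) in Het and 6.03% ± 1.03 (SD, n = 2) in Hom, a difference of -16.5 points (exact p = 0.333). The brains did not overlap, but the spread within Het was larger than the difference, and without Het brain 1 the difference was -3.01 points. As shares of gated cells the values were 44.7, 11.1, 12.3 and 11.9%, so Het brain 2 lay below both Hom brains and only Het brain 1 was high.

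Group 0, the microglia-like part of that gate, made up 26.0, 4.41, 2.39 and 1.48% of all kept cells, again with no overlap and a difference of -13.3 points (exact p = 0.333), which was -2.47 points without Het brain 1. Of gated cells it was 32.3, 5.43, 5.57 and 2.61%, and here Het brain 2 and Hom brain 1 were alike. Within the CD45-low CD11b-positive gate group 0 made up 72.3, 48.7, 45.2 and 21.9%, a mean of 60.5% ± 16.7 (SD, n = 2) in Het against 33.5% ± 16.4 (SD, n = 2) in Hom. On that scale the brains again did not overlap, but Het brain 2 and Hom brain 1 differed by less than the spread within either genotype. Of the microglia-like cluster itself, 90.0, 79.9, 81.2 and 65.7% were in group 0, with overlap.

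What replaced group 0 inside the gate differed from brain to brain. Group 1 took 8.62, 39.8, 27.1 and 60% of the gate, so Hom brain 2 was highest and Het brain 1 lowest. Group 2, the cells with vascular RNA, took 5.54, 6.78, 21.9 and 12.4% (difference 11.0 points, exact p = 0.333), with no overlap. Group 3, the cells of few UMIs, took 13.6, 4.66, 5.81 and 5.71%, and as a share of all kept cells, 4.87, 0.421, 0.308 and 0.386%, it was another of the 4 values with no overlap. Without Het brain 1 that difference was -0.0746 points, and without cells under 2000 raw UMIs it was -0.112 points, with overlap. By RNA cluster, 76.2, 51.7, 44.5 and 27.6% of the gate was microglia-like (difference -27.9 points), and cluster 5 supplied 15.6, 17.8, 25.8 and 27.6%. Both of these were among the 6 of 34 combinations of a gate and a cluster (17.6%) in which the brains did not overlap.

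**Figure D4:**
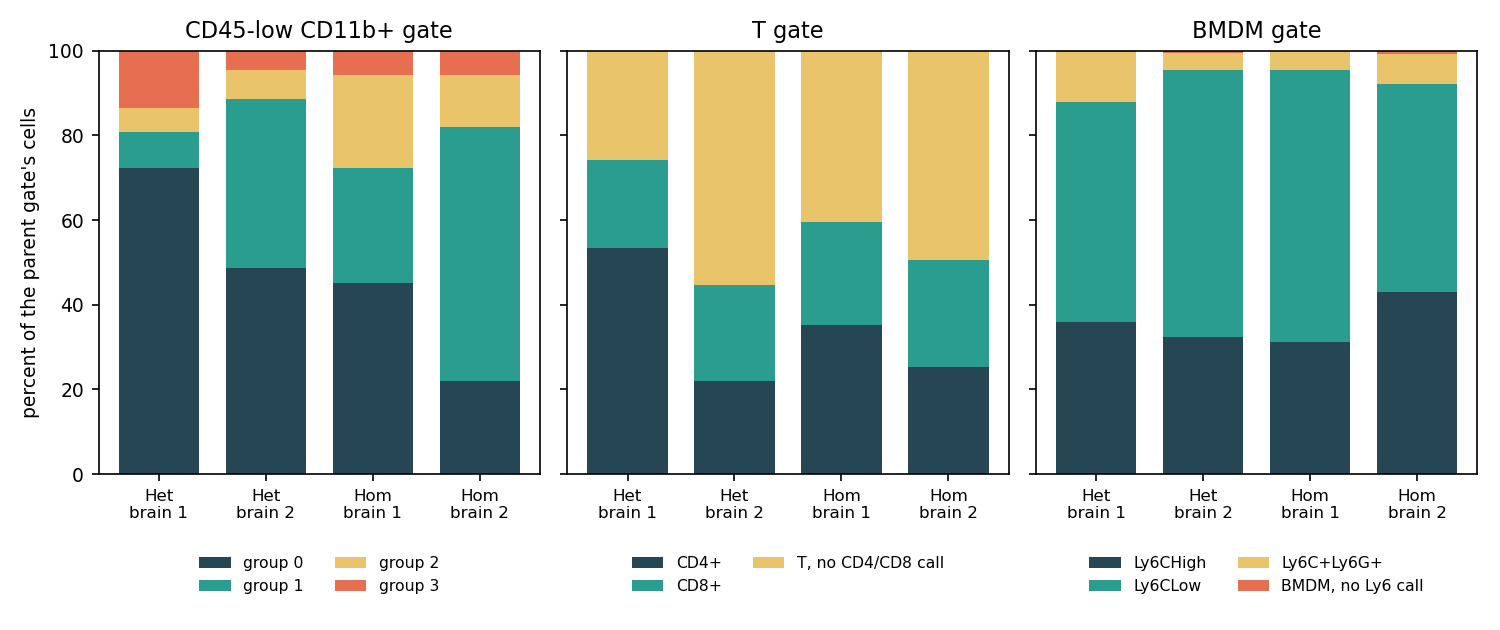
Make-up of the CD45-low CD11b+, T and BMDM gates in each of the 4 brains, as percent of the gate's cells. Group 0 shrinks from 72.3% in Het brain 1 to 21.9% in Hom brain 2, CD8+ cells stay between 20.8 and 25.3% of the T gate, and Ly6CHigh cells between 31.2 and 42.9% of the BMDM gate.

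CD45-low CD11b-negative cells made up 15.6, 9.0, 7.08 and 10.5% of all kept cells and 19.4, 11.1, 16.5 and 18.5% of gated cells, with overlap on both scales. Their make-up varied more than their share. Vascular-like cells were 82.0, 36.2, 38.2 and 29.4% of the gate, so Het brain 1 stood apart, and cluster 5 was 14.2, 19.1, 51.2 and 35.0% (difference 26.4 points, exact p = 0.333), higher in both Hom brains. T-like cells were 2.37, 25.1, 6.76 and 15.95%. Among cells of CD45-type clusters alone, which leaves the vascular-like cells out, the gate made up 4.16, 6.60, 10.8 and 13.7%. These did not overlap and went in the opposite direction to the share of all cells. Cluster 5 counts as CD45-type, however, and supplied 30, 45, 106 and 57 of these 38, 150, 128 and 115 gated cells. The gate held 22.7, 24.5, 53.3 and 45.6% of cluster 5, with no overlap. It held 4.90, 8.36, 5.98 and 16.4% of the T-like cluster and 0, 4.99, 3.66 and 17.8% of the NK-like cluster, and brains overlapped in both. The absence of overlap was thus seen in cluster 5 but not in these clusters, and the share of all CD45-type cells outside cluster 5 was not computed.

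Hashtag signal was lower in the CD45-low gates than in the BMDM gate. Median hashtag UMIs were 191, 339.5, 368 and 247 in CD45-low CD11b-positive cells against 1563.5, 2133, 1682 and 1674.5 in the BMDM gate. The hashtag margin, which scores how far a cell's top hashtag stood above the next, had medians of 2.51, 1.45, 1.83 and 2.44 there against 4.59, 3.19, 3.28 and 4.42. The brain label of a CD45-low cell thus rests on fewer molecules, and the part of this in the shares was not tested beyond leaving out the lowest 25% of margins in each brain, under which the differences of CD45-low CD11b-positive cells and of group 0 became -10.04 and -9.32 points and the brains of both overlapped (exact p = 1).

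BMDM-gated cells made up 19.4, 35.1, 20.7 and 27.2% of all kept cells, with Het and Hom brains interleaved. Of gated cells they made up 24.0, 43.2, 48.1 and 48.0%, from 262, 915, 605 and 422 cells. The mean was 33.6% ± 13.6 (SD, n = 2) in Het and 48.0% ± 0.124 (SD, n = 2) in Hom, a difference of 14.4 points (exact p = 0.333) with no overlap. Het brain 2, at 41.1 to 45.3% by its Wilson interval, was much closer to the Hom brains than to Het brain 1. Since 10.7, 33.0, 25.1 and 19.4% of this gate was NK-like, the share was also computed without NK-like cells in the numerator, as an alternative chosen after seeing the data. It was then 21.5, 28.9, 36.0 and 38.6% of gated cells, again without overlap and 12.1 points higher in Hom. The monocyte and macrophage-like cluster supplied 61.5, 56.3, 63.3 and 68.0% of the gate.

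Ly6CHigh cells, the inflammatory monocyte phenotype, made up 6.94, 11.3, 6.46 and 11.6% of all kept cells, where each genotype had 1 low and 1 high brain. Of gated cells they made up 8.62, 14.0, 15.04 and 20.6% (difference 6.50 points, exact p = 0.333), and the brains did not overlap although Het brain 2 and Hom brain 1 were within each other's Wilson intervals of 12.6 to 15.5 and 13.2 to 17.1%. Within the BMDM gate they made up 35.9, 32.4, 31.2 and 42.9%, with overlap. With NK-like cells left out of the gate this became 40.2, 48.1, 41.3 and 52.9%. In the monocyte and macrophage-like cluster, Ly6CHigh cells were 52.6, 55.7, 47.3 and 61.8% of the cells called high or low, again with both genotypes on either side. Only the share of gated cells had no overlap among these scales. As shares of cells in CD45-type clusters, Ly6CHigh cells were 9.86, 12.8, 15.8 and 21.4%, also with no overlap.

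Ly6CLow cells made up 10.0, 22.1, 13.3 and 13.4% of all kept cells and 51.9, 63.2, 64.3 and 49.3% of the BMDM gate. The NK-like part of them was 20.6, 51.7, 38.6 and 38.5%, lowest and highest in the Het brains. Outside the NK-like cluster, Ly6CLow cells were 7.98, 10.7, 8.17 and 8.24% of all kept cells, so most of the gap between the Het brains was among NK-like cells. Ly6C+Ly6G+ cells were rare, at 2.29, 1.38, 0.923 and 1.93% of all kept cells from 31, 36, 27 and 30 cells. The neutrophil-like share of them was 83.9, 52.8, 70.4 and 33.3%, and the monocyte and macrophage-like share was 12.9, 44.4, 25.9 and 63.3%, so in Hom brain 2 most cells with this label were not neutrophil-like. BMDM cells with no Ly6 call numbered 1, 5, 0 and 3. CD11b- cells were 2.66, 8.26, 4.54 and 4.55% of gated cells, with both Het brains outside the Hom values.

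T-gated cells made up 7.46, 21.3, 7.97 and 9.65% of all kept cells and 9.27, 26.3, 18.5 and 17.0% of gated cells, with means of 17.8% in both genotypes on the latter scale. CD4+ cells made up 3.99, 4.71, 2.80 and 2.45% of all kept cells, from 54, 123, 82 and 38 cells. The mean was 4.35% ± 0.512 (SD, n = 2) in Het and 2.62% ± 0.253 (SD, n = 2) in Hom, a difference of -1.73 points (exact p = 0.333) with no overlap. Of gated cells they were 4.95, 5.81, 6.52 and 4.32%, where the difference was 0.0401 points and the genotypes interleaved.

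CD8+ cells made up 1.55, 4.83, 1.95 and 2.45% of all kept cells. Within the T gate they varied least of its 3 subsets, at 20.8, 22.6, 24.5 and 25.3%. This was higher in both Hom brains by a mean of 3.19 points (exact p = 0.333), from 21, 126, 57 and 38 cells, and the difference is small beside the Wilson half-widths of shares of a parent gate. T cells with neither call were 25.7, 55.3, 40.3 and 49.3% of the T gate and 1.92, 11.8, 3.21 and 4.76% of all kept cells, so Het brain 2 alone supplied 308 of the 502. Trdc was above 0 in 30.8, 75.0, 72.3 and 73.0% of them, so the 26 cells of Het brain 1 differed from the rest. With cells thinned to 10000 corrected UMIs (1 cell left out, from Het brain 1) the share with Trdc was 32.0, 75.0, 72.3 and 73.0%. That step evens out corrected totals only, not raw depth. The monocyte and macrophage-like cluster held 7.69, 2.92, 8.51 and 17.6% of them, from only 2, 9, 8 and 13 cells. Both Hom brains were higher, but Het brain 1 and Hom brain 1 were close.

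Inside the CD4+ gate both Hom brains had a higher share of cells with RNA of Foxp3 than both Het brains. Foxp3 is the transcription factor that defines regulatory T cells. It was above 0 in 13 of 54, 18 of 123, 41 of 82 and 17 of 38 cells, or 24.1, 14.6, 50 and 44.7%. The exact Clopper-Pearson intervals were 13.5 to 37.6, 8.91 to 22.1, 38.8 to 61.3 and 28.6 to 61.7%. The mean was 19.4% ± 6.68 (SD, n = 2) in Het and 47.4% ± 3.72 (SD, n = 2) in Hom, a difference of 28.01 points (exact p = 0.333), larger than the spread within either genotype. This pattern was followed up after its values were seen. No gate name refers to Foxp3, and whether any gate used it is not given in the sources used here. In CD8+ cells Foxp3 was above 0 in 0 of 242, which allows up to 1.24% of cells with a count, at a median of 7109.5 raw UMIs per cell against 5535 in CD4+ cells.

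The other regulatory T cell markers in the list fixed for naming cells were also higher in level in Hom brains, with no test of their own. Foxp3 itself stood at 51.1, 32.7, 142 and 149 CPM in the CD4+ gate. Il2ra, the alpha chain of the interleukin 2 receptor, stood at 142, 49.4, 162 and 208 CPM. Ikzf2, which encodes Helios, stood at 486, 235, 588 and 568 CPM, and Ctla4, an inhibitory receptor, at 532, 436, 587 and 931 CPM. In each of the 4 genes both Hom brains were above both Het brains, although Het brain 1 came close for Il2ra and Ctla4.

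Raw depth moved with this result: median RNA UMIs of CD4+ cells were 4685, 5317, 6367.5 and 6995.5. With cells thinned to 10000 corrected UMIs (1 of 297 cells left out, from Het brain 2) the Foxp3 shares were 24.1, 13.1, 47.6 and 42.1%. This thinning acted on counts already corrected for depth, so it cannot even out the raw depth of the brains. In cells of at least 5000 raw UMIs they were 28, 20.9, 53.6 and 53.8%, from 25, 67, 56 and 26 cells. The monocyte and macrophage-like cluster supplied 11.1, 5.69, 7.32 and 23.7% of CD4+ cells, and in T-like cells of the gate alone the Foxp3 shares were 24.4, 13.9, 52.1 and 38.5%. Leaving out any single brain gave differences between 23.3 and 32.7 points.

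Split by Foxp3, the CD4+ gate went 2 ways as a share of all kept cells. Cells with Foxp3 were 0.960, 0.690, 1.40 and 1.09%, higher in both Hom brains by a mean of 0.423 points. Cells without it were 3.03, 4.02, 1.40 and 1.35%, lower in both Hom brains by a mean of 2.15 points (exact p = 0.333 for each). Of the T gate, cells with Foxp3 were 12.9, 3.23, 17.6 and 11.3%, which overlapped, and cells without it were 40.6, 18.9, 17.6 and 14.0%, which did not. The lower CD4+ share of Hom brains was thus among cells with Foxp3 at 0. A count of 0 does not show that a cell lacked the transcript.

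**Figure D5:**
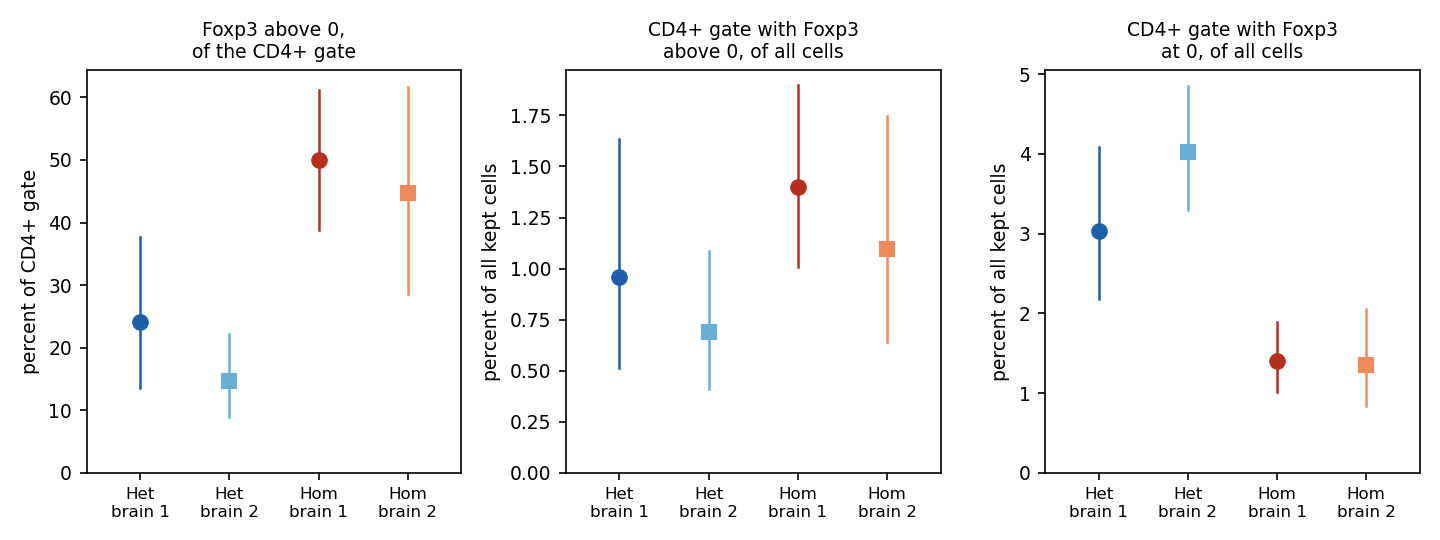
Foxp3 in the CD4+ gate of the 4 brains: percent of the gate with a corrected count above 0 (left), and cells with Foxp3 above 0 (middle) and at 0 (right) as percent of all kept cells, with exact 95% Clopper-Pearson intervals. The left panel puts the Hom brains at 50 and 44.7% against 24.1 and 14.6%, and the right panel puts them at 1.40 and 1.35% against 3.03 and 4.02%.

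Cells with no gate outside the Krt8-high cluster were an uneven loss. They made up 2.44, 10.5, 1.33 and 1.22% of all kept cells, and Het brain 2 supplied 275 of the 366. In that brain their medians were 14711 raw RNA, 5654 antibody tag and 5252 hashtag UMIs, against 7823.5, 2410.5 and 1861.5 over all its cells. They included 81 T-like, 121 monocyte and macrophage-like and 28 B-like cells, and 54.9% had Cd3e above 0. The B-like cluster was the least gated of the clusters with any gate, with 57.1% of its 91 cells in one, and the 5 columns hold no B cell value. Shares of gated cells in Het brain 2 therefore leave out more barcodes of leukocyte-like clusters than in the other brains. Whether the left-out barcodes were single cells or doublets, and what they would have been called, was not tested. None of the 37 choroid plexus-like cells or the 7 cells of the smallest cluster was gated.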

How the data were processed

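RNA, antibody tag and hashtag libraries of 1 pooled preparation were used through the authors' tables. Per the submitters' processing notes, Cell Ranger 3.1, Seurat 3.1.1 and the mm10 mouse genome were used. Raw RNA, antibody tag and hashtag UMIs per cell are deposited as counts, and the hashtag margin is deposited as a score. The deposited RNA table holds the natural log of 1 plus a depth-corrected UMI count. As a check, all 29262479 nonzero entries (100%) were exponentiated, lowered by 1 and found to lie on whole numbers, with 1e-06 of relative deviation allowed. All 9581 cells carry the authors' singlet label, given within 4 hashtags, and no further doublet call was made. The authors' clusters were named from marker lists where at least 3 markers were detected. Cluster 5 stayed unnamed.

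Members, lists and tests were chosen with earlier results of these data known. The brain was the replicate, numbered by hashtag, and Hom and Het shares were compared with exact two-sided permutation tests and Benjamini-Hochberg adjustment. Labels do not say more about the independence of brains than 1 hemisphere per label. Combinations of gate and cluster needed at least 10 gated cells per brain. Corrected counts were summed per gate and brain and scaled to 1000000 (CPM). Leading genes were ranked by the ratio to other gated cells with 50 CPM added. The named genes were those that encode proteins naming a gate, Cx3cr1, Ptprc and marker list members; leading genes are named as a description. Clusters are named with a gate from 5% of its cells. Python 3.11.15, numpy 2.4.6, pandas 2.3.3, scipy 1.17.1 and matplotlib 3.10.9 were used, and the share test was tested on simulated data.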

Additional observations from a re-analysis of the deposited data

How the results depend on the processing

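All 15 differences in share of all kept cells (Hom minus Het, in percentage points) were compared under each alternative, and no alternative could pass 0.05. Those of CD45-low CD11b-positive, group 0 and group 3 kept their direction under all alternatives, and so did the Foxp3 share of CD4+ cells. Absence of overlap was less stable. It was lost for CD45-low CD11b-positive and group 0 without cells over 30000 raw UMIs, without the lowest 25% of hashtag margins (-10.04 and -9.32 points) and in CD45-type clusters alone. For group 3 it was lost under those settings (-0.595 points for hashtag margins), with all deposited barcodes, among cells that the same column assigns, and without cells under 2000 raw UMIs (-0.112 points). Pooling cells, leaving out cells under 2000 raw UMIs and leaving out the NK-like cluster (added after seeing the data) turned none of the 15. The log2 ratio of mean shares has the sign of the difference by construction, so it is no check of direction. With cells over 30000 raw UMIs left out the differences turned to 1.81 for CD45-low CD11b-negative, 1.39 for group 1, 0.470 for group 2, 0.142 for CD4+, 0.849 for CD8+, 16.1 for BMDM, 6.49 for Ly6CHigh, 9.28 for Ly6CLow, 0.309 for Ly6C+Ly6G+ and 0.0106 for BMDM with no Ly6 call. In CD45-type clusters alone they turned to 6.86 for CD45-low CD11b-negative, 1.15 for group 1, 0.346 for group 2, 0.00615 for CD4+, 0.763 for CD8+, 0.145 for T cells with neither call, 16.4 for BMDM, 7.28 for Ly6CHigh, 8.70 for Ly6CLow, 0.433 for Ly6C+Ly6G+ and 0.0138 for BMDM with no Ly6 call. Both settings remove the Krt8-high cluster or nearly all of it from the denominator. Among cells that the same column assigns they turned to 18.9 for CD45-low CD11b-negative, 19.3 for group 1, 11.0 for group 2, 3.19 for CD8+, 4.32 for T cells with neither call, 4.38 for BMDM and 2.95 for Ly6CHigh. Ly6CHigh, at -0.0872, also turned to 0.373 with all deposited barcodes, 0.549 without the lowest 25% of hashtag margins and 0.0170 in clusters of its type alone, and BMDM with no Ly6 call to 0.0133 with all deposited barcodes; the cause was not tested. Restricting a gate to clusters of its type was not run for 5 gates without a type of their own. Of all kept cells, the NK-like and the monocyte and macrophage-like Ly6CLow cells differed by -1.62 and -0.281 points, opposite to their shares of the gate.

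Leaving out each brain in turn gave differences from -29.9 to -3.01 for CD45-low CD11b-positive, -6.80 to -0.221 for CD45-low CD11b-negative, -24.1 to -2.47 for group 0, -1.92 to 0.702 for group 1, -0.995 to 0.386 for group 2, -4.53 to -0.0746 for group 3, -2.09 to -1.36 for CD4+, -2.63 to 0.646 for CD8+, -7.81 to 2.07 for T cells with neither call, -11.1 to 4.57 for BMDM, -4.44 to 0.120 for CD11b-, -2.68 to 2.51 for Ly6CHigh, -8.80 to 3.30 for Ly6CLow, -0.911 to 0.0961 for Ly6C+Ly6G+ and -0.133 to 0.0603 for BMDM with no Ly6 call. For shares of a gate the ranges were -13.2 to 17.9 for NK-like and -4.44 to 11.9 for monocyte and macrophage-like cells of Ly6CLow, and -35.0 to 2.05 for neutrophil-like cells of Ly6C+Ly6G+. No paired analysis was possible because the labels give the brains no shared replicate numbers. The 4 brains limit every comparison here, and small gates are further limited by counts, such as 6 cells of group 3 in Hom brain 2.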

Other observations

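The naive brains, which the same preparation held, give the gates a background without metastases. Of their 2736 kept cells, CD45-low CD11b-positive cells made up 79.8 and 61.1% in the Het and 63.2 and 61.3% in the Hom brains, so the genotypes overlapped. The microglia value of that table made up 73.5 and 55.5% against 56.7 and 55.5%. CD8+ cells made up 0.731 and 0.745% against 1.48 and 1.99%, and cells labelled Ly6Chigh 1.04 and 0.931% against 1.48 and 2.65%, higher in both Hom brains in each case (difference 0.998 and 1.08 points, exact p = 0.333 for both) but from only 34 and 44 cells. Cells labelled Ly6CLy6G, 26 in all, made up 1.15 and 1.68% against 0 and 0.663%, lower in both Hom brains (exact p = 0.333). CD8+, Ly6Chigh and Ly6CLy6G were the only naive values compared whose brains did not overlap. Random labels would give that with a probability of 0.333 for each value. CD4+ cells made up 1.46 and 2.05% against 1.19 and 1.88%. The gates of the 2 tables were drawn separately, so these shares stand beside those of metastasis-bearing brains with no test between them.

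The 1138 barcodes that stood in both tables carried labels from each. Among 62 barcodes labelled CD4+ with metastases, 60 were also CD4+ in the naive table, and of the CD8+ ones 24 of 26 were CD8+. Ly6CLow was kept in 182 of 214, whereas of 164 Ly6CHigh barcodes 96 were Ly6Chigh and 28 Ly6Clow. Group 0 was called microglia in 53 of 72 and BAM in 18, and group 2, the cells of vascular RNA, was called BAM in 27 of 33. Group 3, the cells of few UMIs, was called microglia in 11 of 15 and BAM in 4. Of 384 barcodes with no gate in the metastasis table, 201 were called BAM in the naive one. The genotype label differed between the tables for 403 of the 1138 barcodes, or 35.4%.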
